A study of Mus musculus with 12 samples.

Results

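The effect of Apc loss on the mouse small intestine was estimated across both p53 backgrounds, by setting the 6 arrays of Apc fl/fl mice against the 6 arrays of Apc +/+ mice with p53 status as a blocking factor. These were all 12 arrays of the series, 1 Affymetrix array per mouse and 3 mice per genotype. Of 15101 genes tested, 3036 moved alike in both backgrounds by the rule given below. The genotypes were Cre+Apc+/+p53+/+ (control), Cre+Apcfl/flp53+/+ (Apc-deficient), Cre+Apc+/+p53-/- (p53-deficient) and Cre+Apcfl/flp53-/- (double-deficient). All mice, controls included, carried the Ah-cre transgene, in which an inducible Cyp1a promoter drives the recombinase, and all received β-naphthoflavone at 80 mg/kg. The labels give 3 injections within 1 day and the methods give daily injections. The mice were adult, and tissue was taken at day 5 after induction. In Apc fl/fl mice Apc was therefore deleted only where and when Cre was active, whereas the p53 allele was a null in the whole animal. Exact ages, sexes and strains are not stated in the sources used.

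Apc is a scaffold of the cytoplasmic complex that marks β-catenin for degradation. Without it β-catenin accumulates, enters the nucleus and activates Wnt target genes together with TCF/LEF factors. In the normal intestine Wnt activity is confined to the crypts, where it maintains stem cells and dividing progenitors and positions Paneth cells through Eph receptors. Cells that leave the crypt stop dividing and become absorptive enterocytes, or goblet, enteroendocrine and tuft cells. p53 is a stress-responsive transcription factor that restrains division, and whether it modifies the response to Apc loss was the question behind the design.

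The genotype labels were checked on p53. A first Trp53 probe set had scaled signals (linear intensity after each array was brought to the same mean log2 signal) of 190.3 to 274 in control and 272 to 392 in Apc-deficient mice, against 3.55 to 15.1 in p53-/- mice. A second Trp53 probe set gave 314 to 428 and 434 to 687 with p53, against 121 to 160.3 and 170.2 to 242 in p53-/- mice. The other tested Trp53 probe set, which was dim, went the other way, at 18.3 to 28.3 in control and 13.1 to 21.5 in Apc-deficient mice, undetected in both, against 17.0 to 49.6 in p53-deficient and 58.6 to 84.7 in double-deficient mice. Of 4 Apc probe sets, 3 were not called for Apc status (adjusted p = 0.16, 0.18 and 0.34) and 1 was higher in Apc fl/fl mice (log2 change 1.27 ± 0.31 (SE), adjusted p = 0.0098). Which of them lies inside the deleted segment is not stated, so Apc transcript did not check the deletion. The epithelial gene Vil1 was at 2818 to 9310.1 over the 12 arrays. On 2 arrays exocrine pancreas genes stood out, with summed signals over 13 genes of 80376 for control d5wt_474u and 31443 for gap429, a double-deficient mouse, while the other 10 lay between 1065 and 3866. Codes in the column names separate p53 status (letters) and all 4 genotypes (digits). Their meaning is not stated, so a processing run behind the digits and the genotype cannot be told apart.

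Apc loss changed a large part of the transcriptome, with Wnt target, stem cell and growth genes higher and genes of mature enterocytes lower. Of 35622 probe sets tested, 5952 (16.7%) were higher and 4536 (12.7%) lower in Apc fl/fl mice at an adjusted p under 0.05, with p53 status as a block. Among these 10488 probe sets the effects in the 2 backgrounds, which share no array, had the same sign in 10485, a share that a call on the average itself favours. Taken alone, Apc loss with p53 (Apc-deficient against control) called 5725 probe sets higher (16.1%) and 3924 lower (11.0%). Apc loss without p53 (double-deficient against p53-deficient) called 1735 higher (4.87%) and 1613 lower (4.53%). A total of 1319 probe sets were higher in both (3.7%), 862 were lower in both (2.42%), and 11 were called in opposite directions. The interaction, which tests whether the effect of Apc loss differed with p53 status, called 4 probe sets (0.0112%), while 5237 had an unadjusted p under 0.05.

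The counts in each background depended on single arrays. With p53, 9649 calls became 5565 without control d5wt_110u and 5515 without both arrays rich in pancreas transcripts. Without p53, 3348 calls became 1152 without double-deficient gap397, 1575 without double-deficient gap429, 1318 without p53-deficient GAP940, 1893 without p53-deficient GAP886 and 793 without both pancreas-rich arrays. The 2181 joint calls became 837, 1162, 936, 1288 and 549 in the same order. Without scaling between arrays the median change of all probe sets was -0.66 with p53, 0.35 without and -0.17 in the averaged effect, so all changes are relative to the array mean. Unscaled, 10.1% of calls with p53 and 84.8% of those without were increases, against 59.3% and 51.8% after scaling.

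The same comparison was run as 2 fits of 6 arrays each, which shared neither arrays nor a variance estimate. With p53, 3515 probe sets were called higher (9.87% of those tested) and 2207 lower (6.2%). Of those higher, 93.7% had a positive change without p53, where 70.3% of all probe sets had the same sign in both backgrounds, and 19.3% were called there, against 2.99% of all probe sets called higher. Of those lower, 87.6% were lower without p53 and 19.9% were called, against 3.32% of all probe sets. Read from the other side, 63.9% of 1064 probe sets called higher without p53 and 37.2% of 1182 called lower were also called with p53.

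Genes were counted as alike where the averaged effect was called, the 3 Apc fl/fl arrays did not overlap the 3 Apc +/+ arrays in either background, and the 2 effects differed by less than 1 log2 unit. These values chose the genes, so the rule is a description and carries no test. Where arrays of alike genes are said below not to overlap, the rule had already asked for this within each background. Such separation adds no support. It selected 3462 probe sets higher (9.72%) and 2244 lower (6.3%) after Apc loss. With 1 probe set per gene, 2745 genes were called higher (18.2%) and 2342 lower (15.5%), and 1739 higher (11.5%) and 1297 lower (8.59%) were alike. Just inside the limit was Ctcf, with log2 changes of 1.28 with p53 and 0.28 without. Just outside it was Gas8, with 0.99 and 1.99. Over alike probe sets the median absolute difference of the 2 effects was 0.338 log2 units and its median SE 0.369. The 95% interval of the difference lay wholly within 1 log2 unit for 1932 of the 10488 called probe sets, and for the others it also held differences past that limit. Of 1341 alike genes with a second probe set, 717 (53.5%) had it called in the same direction and 16 in the opposite one, where 29.3% of second probe sets over all genes were called in either direction.

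**Figure D1:**
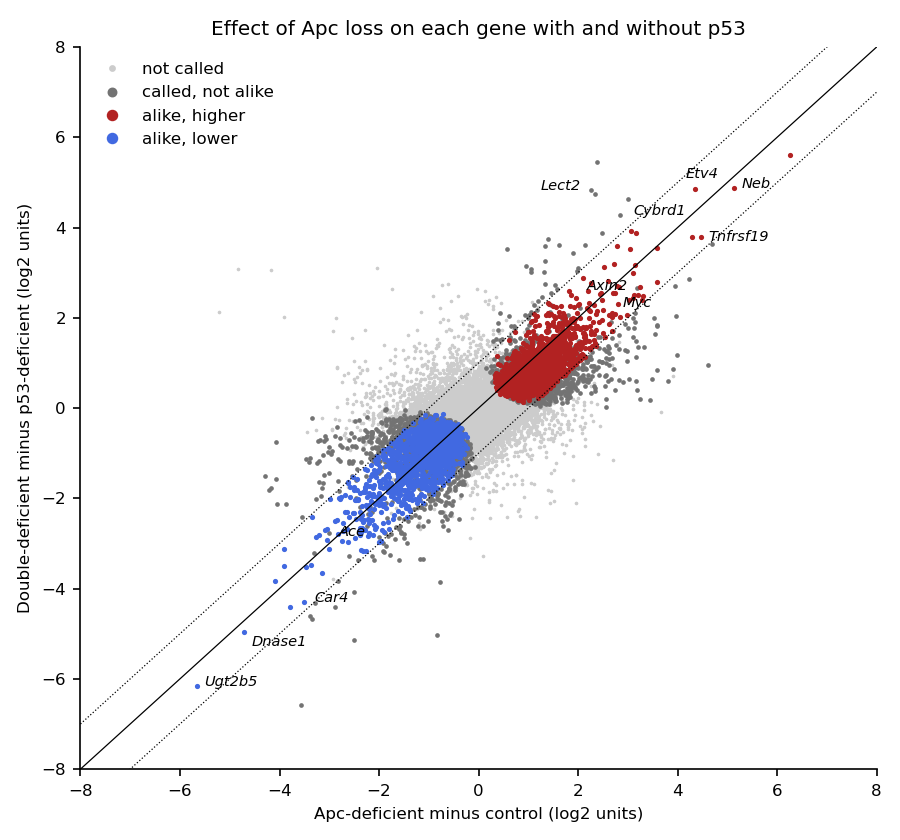
Change in log2 signal after Apc loss with p53 (x axis) and without p53 (y axis) for 15101 genes, 1 point per gene; the solid line marks equal effects and the dotted lines a difference of 1 log2 unit. The 1739 alike higher (red) and 1297 alike lower genes (blue) lie between the dotted lines by definition, with Tnfrsf12a (the uppermost red point, a fitted value, since the gene was undetected on the Apc +/+ arrays), Neb, Etv4 and Tnfrsf19 far up and Ugt2b5, Dnase1 and Car4 far down.

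Most Wnt target genes rose. Of 28 listed genes 25 had a tested probe set, and 22 of these were higher after Apc loss, 0 were lower and 15 were alike. Their median log2 change was 1.88, where the median over all genes was -0.02. Axin2, a scaffold of the destruction complex and a feedback inhibitor of the pathway, had signals of 344, 392 and 313 in control and 438, 547 and 470.1 in p53-deficient mice. In Apc-deficient mice it reached 1124, 2060.3 and 1231, and in double-deficient mice 2134, 2856 and 2268. All 6 Apc fl/fl arrays exceeded all 6 Apc +/+ arrays, with a log2 change of 2.17 ± 0.18 (SE, adjusted p = 4.6e-05) and a difference between backgrounds of 0.29 (95% interval -0.50 to 1.07). Myc, which drives growth and ribosome production, was at 206 to 434 on the Apc +/+ arrays and 1093 to 2469 on the Apc fl/fl arrays, with log2 changes of 2.70 with p53 and 2.55 without. Rnf43, a ubiquitin ligase that removes Wnt receptors from the membrane, rose from 100.2 to 163 up to 520.3 to 1090.1 (2.45 and 2.53). Cd44, an adhesion receptor of crypt cells, rose from 613 to 1005 up to 2701 to 3976 (1.85 and 2.25). In none of these genes did the 2 groups of 6 arrays overlap. Ccnd1, Kremen1 and Dkk3 did not pass the test (log2 change 0.59, 0.35 and -0.22).

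Etv4, an ETS transcription factor, had signals of 15.4, 11.5 and 22.6 in control and 15.1, 8.62 and 6.94 in p53-deficient mice and was detected on none of these arrays. It was at 337, 491 and 205 in Apc-deficient and 214, 353 and 290.4 in double-deficient mice. By fitted values, with no measured baseline, it was 24.3-fold higher (adjusted p = 1.2e-05). Tnfrsf19, a TNF receptor family member found on crypt stem cells, rose from 52.6, 28.1 and 51.0 in control to 1168, 582 and 1189.5 in Apc-deficient mice. Without p53 it rose from 54.0, 60.4 and 91.7 to 1093, 809 and 904. Its log2 change was 4.13 ± 0.26 (adjusted p = 1.3e-05), and the 2 Apc genotypes did not overlap.

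**Figure D2:**
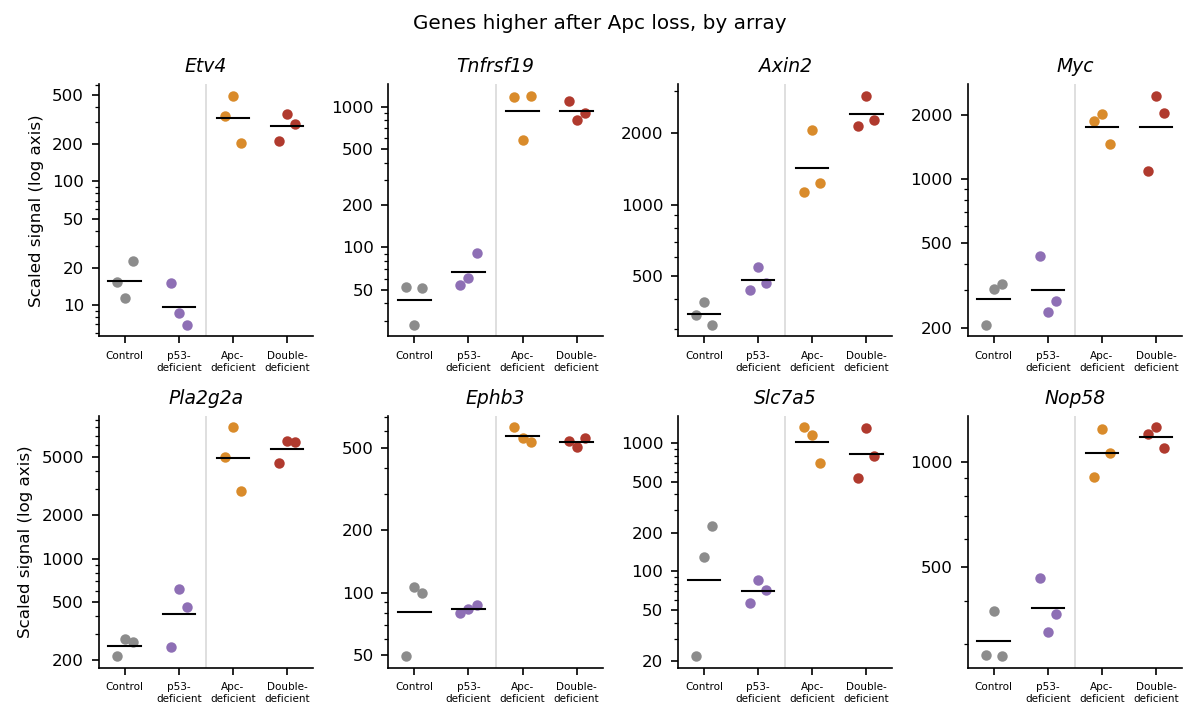
Scaled signal (log axis) of 8 genes that were higher after Apc loss, by genotype; each point is 1 array (n = 3 per genotype) and each bar the geometric mean. For all 8 genes the 6 points to the right of the grey line lie above the 6 to its left, for Tnfrsf19 at 582 to 1189.5 against 28.1 to 91.7. The rule for alike genes already asked for non-overlap within each background.

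Crypt stem cell genes rose. All 13 listed genes were measured and 13 were higher after Apc loss, with 10 alike and a median log2 change of 1.58. Lgr5, the receptor for R-spondins that marks crypt base stem cells, was at 146, 123 and 154 in control and 527, 435 and 455 in Apc-deficient mice. It was at 159, 230.1 and 247 in p53-deficient and 576, 525 and 563 in double-deficient mice, a log2 change of 1.58 ± 0.16 (adjusted p = 0.00011). The 6 Apc fl/fl arrays lay above the others. Sox9, a crypt transcription factor, changed by 1.91 with p53 and 1.91 without (95% interval of the difference -0.58 to 0.59). Cdca7, a Myc-responsive nuclear protein, rose from 414 to 554 up to 1692 to 2869, and Msi1, an RNA-binding protein of progenitors, from 92.9 to 197 up to 415 to 859. Olfm4, a secreted stem cell marker, was called (0.65, adjusted p = 0.029), but its Apc +/+ range of 3401 to 7012 overlapped the Apc fl/fl range of 5682 to 9033. Ascl2, the transcription factor that maintains stem cells, was called (3.18, adjusted p = 0.00010) but lay outside the limit, at 2.49 with p53 and 3.88 without.

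The machinery of growth and division rose as well. Of 30 ribosome biogenesis genes measured, 29 were higher and 26 alike (median log2 change 1.45). Nop58, a core protein of the particles that modify ribosomal RNA, was at 278, 373 and 276 in control and 909, 1247 and 1064 in Apc-deficient mice. Without p53 it went from 464, 325 and 366 to 1201, 1258 and 1098, and the 2 Apc genotypes did not overlap. Its partner Nop56 and the assembly factor Rrs1 had log2 changes of 1.71 and 1.71. Of 36 measured DNA replication genes 29 were higher and 25 alike, and of 36 mitotic genes 32 were higher and 27 alike, with 0 lower in either list. Mcm2 and Mcm7, subunits of the replicative helicase, changed by 1.49 ± 0.16 and 1.66 ± 0.19 (adjusted p = 0.00014 and 0.00022). Single calls numbered 27 with p53 and 20 without for DNA replication, and 28 and 6 for mitosis. Among all probe sets 16.1% were called higher with p53 and 4.87% without. The list medians were 1.11 and 0.93 for DNA replication and 1.19 and 0.87 for mitosis. The 2 backgrounds were not compared by a test over these lists. In amino acid, one-carbon and polyamine synthesis 12 of 13 measured genes were higher and 9 of these alike. Psat1 and Phgdh, which make serine, were 7.80-fold and 5.67-fold higher. Slc7a5, a transporter of large neutral amino acids, was at 21.7 to 226 on the Apc +/+ arrays, detected on 1 of them, and at 539 to 1328 on the Apc fl/fl arrays. The 1 member that fell was Slc3a2, the heavy chain that pairs with Slc7a5 (-0.55, adjusted p = 0.038), a call that held under 11 of 22 alternatives and was lost without scaling, without both pancreas-rich arrays and without any 1 of 8 single arrays (control d5wt_110u and d5wt_323u, Apc-deficient D5fl_444t, double-deficient gap346 and gap429, and each p53-deficient array).

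Promoters of these groups were read from RefSeq sequence (GRCm38.p6), as the 250 bases before each annotated start, and searched on both strands for 10 families of short motifs. The groups described here were chosen after the counts were seen. An E2F-type match (TTTGGCGC, TTTCCCGC, TTTCGCGC or TTTGGCGG), the element through which E2F factors act on replication genes, was in 27.8% of 36 windows of DNA replication genes and in 1.96% of all 32851 windows. The CCAAT box was in 78.1% of 32 windows of mitotic genes and 33.8% of all windows, and TTTGAA, the core of the CHR element of late cell cycle promoters, in 43.8% and 16%. A TCF/LEF match (CTTTGAT) was in 16% of 25 windows of Wnt target genes (4 windows) and 3.21% of all windows. Of the 28 listed Wnt target genes 16 had a window, and the window of Axin2 held no such match. The same match was in 8% of 25 windows of brush border genes and 0% of 25 windows of nutrient transporters. The Myc-type E-box CACGTG was in 0% of 26 windows of ribosome biogenesis genes and 6.02% of all windows. The CRE element TGACGTCA was in 2.78% of windows of DNA replication genes and 1.55% of all windows. Matches can overlap, and a match is a description of letters only. A window is shown for an alike member of 3 of these groups, with all matches to the families searched in capitals.
Mcm5, chr8:75109259-75109508, plus strand, E2F-type (2, overlapping), CCAAT and CRE matches: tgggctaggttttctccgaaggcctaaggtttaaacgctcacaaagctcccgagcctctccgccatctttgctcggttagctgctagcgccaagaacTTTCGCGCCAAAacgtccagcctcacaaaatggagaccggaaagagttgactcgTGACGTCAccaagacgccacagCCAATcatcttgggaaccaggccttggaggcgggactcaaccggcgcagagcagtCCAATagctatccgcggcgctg
Prc1, chr7:80294226-80294475, plus strand, CCAAT and TTTGAA matches: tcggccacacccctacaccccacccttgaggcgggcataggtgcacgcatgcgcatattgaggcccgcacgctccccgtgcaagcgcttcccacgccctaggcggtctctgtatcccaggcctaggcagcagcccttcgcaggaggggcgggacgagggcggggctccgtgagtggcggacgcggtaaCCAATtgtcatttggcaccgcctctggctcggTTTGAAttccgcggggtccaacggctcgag
Tnfrsf19, chr14:61037988-61038237, minus strand, 1 of its annotated starts, TCF/LEF and E-box matches: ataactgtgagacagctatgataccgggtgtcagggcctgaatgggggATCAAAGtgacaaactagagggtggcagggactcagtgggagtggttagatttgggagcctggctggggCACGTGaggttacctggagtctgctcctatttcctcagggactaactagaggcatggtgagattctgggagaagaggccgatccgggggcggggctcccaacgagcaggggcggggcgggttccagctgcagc

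Mcm5, a helicase subunit, was at 431 to 889.8 on the Apc +/+ arrays and 1134 to 1698 on the Apc fl/fl arrays (log2 change 1.12 ± 0.19, adjusted p = 0.0013). Prc1, which bundles microtubules in the dividing spindle, was at 149 to 320.2 and 389 to 609 (1.16 ± 0.20, adjusted p = 0.0015). For both genes the 6 Apc fl/fl arrays lay above the 6 Apc +/+ arrays.

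Other large increases among alike genes came from several cell functions. Tnfrsf12a, the receptor for the cytokine TWEAK, was undetected on the Apc +/+ arrays at 12.9 to 39.3 and reached 601 to 1578 on the Apc fl/fl arrays, at least 61.2-fold higher (adjusted p = 4.1e-06). Neb, which encodes the muscle protein nebulin, was at 1.01 to 8.91, never detected, and 49.2 to 102, at least 7.53-fold higher. Pla2g2a, a secreted phospholipase of Paneth cells, rose from 212, 279.9 and 265 to 5033, 7977 and 2936 with p53 and from 247, 612 and 463 to 4567, 6436 and 6305 without it. Its log2 change was 4.04 ± 0.28 (adjusted p = 2.0e-05), and its groups did not overlap. Pla2g2f, of the same phospholipase family, was undetected on the Apc +/+ arrays and at least 8.71-fold higher. Sox17, a transcription factor known as an antagonist of β-catenin, Lrfn4, a synaptic adhesion protein, and Mipol1, a coiled-coil protein, were likewise undetected there and at least 7.54-fold, 7.09-fold and 6.28-fold higher. Tnfrsf11b, the decoy receptor osteoprotegerin, was 9.74-fold higher, from 12.2 to 27.0 up to 104 to 307. Mecom, a zinc finger transcription factor, was 7.41-fold higher, by 3.29 with p53 and 2.49 without (95% interval of the difference -1.57 to -0.05). Bex1, a small adaptor protein, varied within genotypes, at 675, 172 and 1271 in Apc-deficient and 119.7, 233 and 178 in double-deficient mice, all above the 23.4 to 75.0 of the Apc +/+ arrays.

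Eph receptors guide crypt cells to their position, with EphB receptors high at the crypt base and their ephrin-B ligands high above it. Ephb3 was at 49.4 to 107 on the Apc +/+ arrays, undetected on each, and at 505 to 626 on the Apc fl/fl arrays. It was 6.72-fold higher by fitted values. Its ligands fell, Efnb1 from 593 to 748 down to 275 to 516 (-0.66, adjusted p = 0.012) and Efnb2 from 420.1 to 802 down to 237 to 348 (-0.86, adjusted p = 0.0027). None of the 3 genes overlapped between Apc genotypes. Over 10 measured Eph and ephrin genes 3 were higher and 3 lower, where 18.2% and 15.5% of all genes were called. Of 9 measured Paneth cell genes 3 were higher, Pla2g2a, the protease Mmp7 (2.62 with p53, 0.96 without) and the defensin Defa3 (0.78, not called without scaling), whose probe set may also read other defensins. Lyz1 and Ang4, encoding lysozyme and an angiogenin, had log2 changes of 0.40 and 0.31 that did not pass (adjusted p = 0.24 and 0.50). In whole tissue, fewer cells of a type and less RNA per cell cannot be told apart.

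Enterocyte genes fell. Of 19 measured genes for brush border enzymes and structure 17 were lower, 0 higher and 8 alike, with a median log2 change of -1.20. Ace, the angiotensin-converting enzyme of the brush border, was at 4294, 2039.6 and 1518 in control and 129.7, 352 and 510.1 in Apc-deficient mice. Without p53 it was at 2042, 4147 and 1416 against 428, 267 and 236, a log2 change of -2.99 ± 0.39 (adjusted p = 0.00035) with a difference between backgrounds of 0.12 (95% interval -1.66 to 1.90). Every Apc fl/fl array lay below every Apc +/+ array. Treh, which splits trehalose, fell from 1362 to 3562 down to 231 to 729, and Mme, the peptidase neprilysin, from 1134 to 3514 down to 162 to 931. Lct, encoding lactase, was called (-3.29 ± 0.52, adjusted p = 0.00096), but its effects of -2.51 with p53 and -4.07 without were further apart than 1 log2 unit. Vil1 and Myo1a, which build the microvillus, changed by -0.79 and -0.74 and were not alike, since their arrays overlapped.

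**Figure D3:**
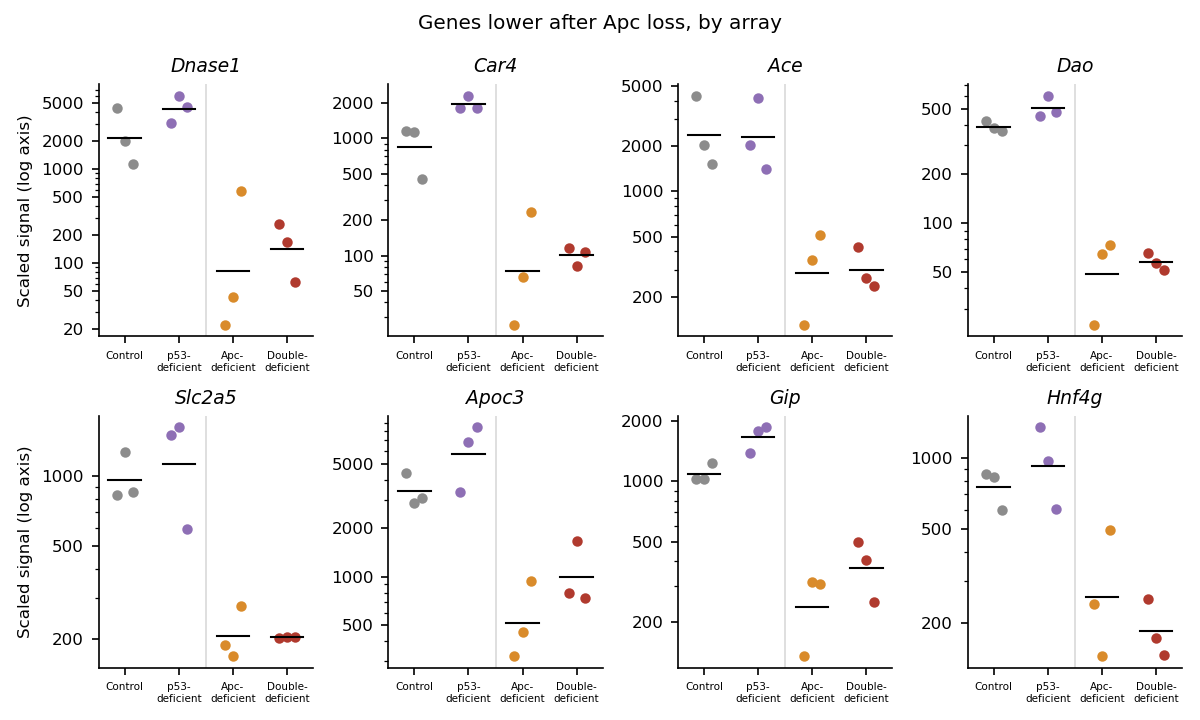
Scaled signal (log axis) of 8 genes that were lower after Apc loss, by genotype; each point is 1 array (n = 3 per genotype) and each bar the geometric mean. For all 8 genes the 6 points right of the grey line lie below the 6 to its left, for Dao at 23.8 to 73.8 against 365 to 603. The rule for alike genes already asked for non-overlap within each background.

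A promoter window of Treh held a match to the HNF4-type element CAAAGTCCA, through which HNF4 factors act on enterocyte genes. This element was in 8% of 25 windows of brush border genes (2 windows) and in 0.384% of all windows. Whether HNF4 factors had a part in the changes was not tested.
Treh, chr9:44672983-44673232, plus strand, the match in capitals read on the opposite strand: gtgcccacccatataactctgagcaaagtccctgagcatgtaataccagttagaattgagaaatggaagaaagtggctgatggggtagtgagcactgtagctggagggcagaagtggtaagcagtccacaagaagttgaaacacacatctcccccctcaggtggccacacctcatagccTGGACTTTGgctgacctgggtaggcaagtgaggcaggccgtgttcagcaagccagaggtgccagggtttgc

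Most genes for nutrient transport and fat absorption were lower too. Of 20 measured genes on the transporter list 14 were lower and 10 alike. Slc2a5, the fructose transporter, was at 595 to 1612 on the Apc +/+ and 169 to 277 on the Apc fl/fl arrays (-2.34 ± 0.25, adjusted p = 0.00016). Abcg5, a subunit of the sterol exporter of the brush border, fell by 2.72 on the log2 scale, and Slc7a8 and Slc15a1, carriers of amino acids and small peptides, fell by 2.04 and by 1.83. Slc5a4a and Slc5a4b, of the sodium-glucose carrier family, went from 169.6 to 1039.9 and 157 to 874 down to 28.7 to 64.5 and 18.2 to 68.8. They are near copies, and these probe sets may not separate them. The 1 list member called higher was Cybrd1, the brush border ferric reductase, which is not a carrier. It rose from 30.2 to 75.0 up to 237 to 1378 (3.82 ± 0.35, adjusted p = 6.6e-05), by 3.01 with p53 and 4.64 without. In all, 3 members of this list had a positive change, each at an unadjusted p under 0.05 by limma. With a variance trend 3 were called higher, and 2 without both pancreas-rich arrays. Of 19 genes of fat absorption 13 were lower, 0 higher and 9 alike. Apoc3, an apolipoprotein of chylomicrons, was at 2886 to 8426 on the Apc +/+ arrays and 321 to 1670.5 on the Apc fl/fl arrays (-2.63 ± 0.32, adjusted p = 0.00027), and Slc27a4, a fatty acid transport protein, changed by -2.24. Of 13 genes of fatty acid oxidation 7 were lower, or 4 without both pancreas-rich arrays. Among them was Ppara, the fatty acid receptor that controls this pathway, detected on all 6 Apc +/+ arrays and on none of the 3 Apc-deficient arrays. It was at least 3.85-fold lower in Apc-deficient than in control mice, and at 70.2 to 99.7 against 159.9 to 232 without p53.

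Other large decreases among alike genes came from several functions. Dnase1, a secreted nuclease, was at 4451, 1998 and 1129 in control and 3113, 5982 and 4545 in p53-deficient mice. It was at 21.9, 43.4 and 577 in Apc-deficient and 263, 169 and 62.2 in double-deficient mice, with a log2 change of -4.84 ± 0.70 (adjusted p = 0.00062) and a wide interval of the difference between backgrounds (-3.48 to 2.98). Car4, a membrane carbonic anhydrase, was at 453 to 2296 against 25.6 to 237, and Dao, D-amino acid oxidase, at 365 to 603 against 23.8 to 73.8. Abat, which degrades GABA, was detected on all 6 Apc +/+ arrays and no Apc-deficient array and was at least 7.12-fold lower with p53. Slc16a5, a monocarboxylate carrier, Eci3, an enzyme of fatty acid oxidation, and Nat8f4, an acetyltransferase, were 8.06-fold, 7.39-fold and 7.25-fold lower. The transcript 0610005C13Rik was 8.35-fold lower. In all of these the 6 Apc fl/fl arrays lay below the 6 Apc +/+ arrays, which the rule for alike genes favours. Of 17 genes of xenobiotic metabolism 12 were lower, 0 higher and 8 alike, with a median of -1.74. Cyp3a25, a cytochrome P450, ranged over 373 to 3234 on the Apc +/+ arrays and 12.8 to 280.2 on the Apc fl/fl arrays. Ugt2b5, a glucuronosyltransferase, was at 56.7 to 178 against 0.709 to 4.21, and at least 9.99-fold lower with p53, where no Apc-deficient array detected it.

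Several hormone and mucin genes of the secretory lineages fell, and about as many members of these lists did not pass the test as lower. Of 16 measured enteroendocrine genes 8 were lower, 2 higher and 7 alike. The shares over all genes were 15.5% lower, 18.2% higher and 8.59% lower and alike. List counts in this paragraph were not tested against these shares. Gip, the incretin of K cells, was at 1024, 1023 and 1228 in control against 134, 316 and 310.1 in Apc-deficient mice, and at 1385, 1773 and 1855 against 501, 408 and 250.3 without p53 (-2.18 ± 0.24, adjusted p = 0.00018). Gcg, the proglucagon gene, and Cck, the cholecystokinin gene, changed by -2.34 and -1.48. Sst, encoding somatostatin, was detected on all 6 Apc +/+ and no Apc-deficient array and was at least 2.52-fold lower with p53. The granule genes Chga and Chgb had log2 changes of -0.29 and -0.29 that did not pass (adjusted p = 0.32 and 0.33). The 2 higher genes were specification factors, Neurog3, undetected on the Apc +/+ arrays and at least 1.66-fold higher (adjusted p = 0.049, called under 7 of 21 alternatives), and Insm1 (0.95, adjusted p = 0.0098). Of 15 goblet cell genes 7 were lower, 6 of these alike, 7 were not called and 1 was higher, the glycosyltransferase Galnt12 (0.68, adjusted p = 0.030, called under 13 of 22 alternatives). Muc2, the gel-forming mucin, was at 3791 to 7424 on the Apc +/+ arrays and 1674 to 3532 on the Apc fl/fl arrays (-1.21 ± 0.19, adjusted p = 0.00090), and Agr2, which folds mucins, changed by -1.71. Atoh1 and Spdef, factors of secretory cells, had log2 changes of -0.16 and -0.01, and neither passed. Of 11 tuft cell genes 6 were lower and 4 alike, including the taste channel Trpm5, detected on all 6 Apc +/+ and no Apc-deficient array and at least 3.40-fold lower with p53.

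Of 10 transcription factors of intestinal identity 3 were lower and 1 higher. Over all genes 15.5% were called lower and 18.2% higher, and the list counts in this paragraph were not tested against these shares. Hnf4g, a nuclear receptor of the enterocyte, was at 851, 831 and 598 in control, 239, 144 and 495 in Apc-deficient, 1345, 965 and 606 in p53-deficient and 252, 172 and 146 in double-deficient mice (-1.93 ± 0.32, adjusted p = 0.0013). Klf4, a differentiation factor, had effects of -0.62 with p53 and -1.98 without, and Cdx1 was higher (0.69, not called without scaling). Hnf4a and Cdx2, which specify intestinal epithelium, had log2 changes of -0.23 and 0.36 that did not pass. Among 25 Wnt receptors and parts of the destruction complex 6 were higher and 2 lower, with 2 higher without scaling or without both pancreas-rich arrays and 3 without any 1 of control d5wt_110u, control d5wt_323u and Apc-deficient D5fl_331u. Ctnnb1, encoding β-catenin itself, ranged over 4294 to 7640.2 on Apc +/+ and 5044 to 7878 on Apc fl/fl arrays (0.20, adjusted p = 0.42). The receptor Fzd6 was undetected on the Apc +/+ arrays and detected on all 3 Apc-deficient arrays, and over both backgrounds it was 4.65-fold higher by fitted values. Its signals were 15.7 to 73.8 on the Apc +/+ arrays, 207 to 335 in Apc-deficient and 105 to 127 in double-deficient mice. Of 15 BMP and Hedgehog genes 3 were higher and 4 lower, or 1 lower without scaling. Bmp4, among those 4, was alike and 2.16-fold lower with p53. This is no lower bound, since 2 of 3 control arrays and no Apc-deficient array detected it.

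Most p53 target genes did not pass the test of the averaged effect, which includes mice without p53. Taken alone, Apc loss with p53 called 3 of 21 measured higher and 2 lower (median log2 change 0.16). Over all probe sets 16.1% and 11.0% were called there. Without p53 it called 0 higher and 3 lower (median -0.37), against 4.87% and 4.53%. The medians were not compared by a test. In the averaged effect 2 of the 21 were higher and 2 lower, where 18.2% and 15.5% of all genes were called. The lower count was 4 after quantile normalisation and 5 in the deposited scores, and it stayed at 2 or 3 with any 1 array left out. The higher genes were Plk2, a kinase (1.53, adjusted p = 0.017), and Aen, a nuclease (0.81, adjusted p = 0.0085), and neither was called without scaling. The lower genes were the death receptor Fas and Sesn1, a stress-induced protein (-1.09 and -2.23). Fas was 4.11-fold lower with p53, which is no lower bound, since 1 of 3 control arrays and no Apc-deficient array detected it. Cdkn1a, encoding the cell cycle inhibitor p21, ranged over 1519.9 to 2393 against 944 to 2233 (-0.61, adjusted p = 0.050, just past the threshold and not called), and Mdm2, the ubiquitin ligase of p53, over 406 to 852 against 428 to 731 (-0.15, not called). Trp53, by its second probe set, was higher in the averaged effect (adjusted p = 0.015 by limma, not called without scaling). Its changes of 0.64 with p53 and 0.67 in p53-/- mice, where that probe set still gave signal, did not pass taken alone (adjusted p = 0.074 and 0.11). The first Trp53 probe set changed by 0.63 with p53, -0.74 without and -0.05 in the averaged effect (adjusted p = 0.34, 0.36 and 0.93). The other, dim probe set was not called in the averaged effect either (0.33, adjusted p = 0.52). Cdkn2a, whose locus encodes p19ARF, was lower in the averaged effect (adjusted p = 0.0095) and was not called without scaling. With p53 it was 2.15-fold lower, which is no lower bound, since 2 of 3 control arrays and no Apc-deficient array detected it.

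Genes of other cell types in the tissue were measured too. Over all genes 18.2% were called higher and 15.5% lower, and the list counts given here were not tested against these shares. Of 11 measured lymphocyte genes 7 were lower, 0 higher and 2 alike, with a median of -1.46. Cd3g, of the T cell receptor complex, was at 236 to 512 on the Apc +/+ arrays and 81.4 to 205 on the Apc fl/fl arrays (-1.66, adjusted p = 0.00090). The summed signal of the list was 13693 to 22890 on Apc +/+ and 4894 to 11250 on Apc fl/fl arrays. Of 11 myeloid genes 4 were lower, and of 8 genes of the enteric nervous system 3, or 1 without scaling and without any 1 of 5 arrays (each of the 3 controls, Apc-deficient D5fl_131u and double-deficient gap397). Among 11 smooth muscle genes 0 were called in either direction by limma (2 at an unadjusted p under 0.05), with summed signals of 3180.2 to 14526 and 6356 to 11159, and among 11 fibroblast and endothelial genes 1 was lower, or 0 without control d5wt_323u or control d5wt_474u. The part of these cell types in the changes above was not tested. Exocrine pancreas genes had 0 calls by limma (1 of 13 at an unadjusted p under 0.05) but opposite medians, -2.84 with p53 and 2.02 without. The 2 arrays rich in them belong to the control and the double-deficient groups. Among aryl hydrocarbon receptor targets, listed because the inducer is a ligand of that receptor, 2 of 7 were lower, or 1 without scaling and without most single arrays (10 of 12). Of 12 interferon response genes 2 were higher and 1 lower, a count that single arrays moved, to 5 higher without double-deficient gap397 and 5 without p53-deficient GAP901, and to 0 without both pancreas-rich arrays. Of 4 ileal genes 2 were lower, and of 6 genes of the proximal small intestine 3 were lower and 1 higher.

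**Figure D4:**
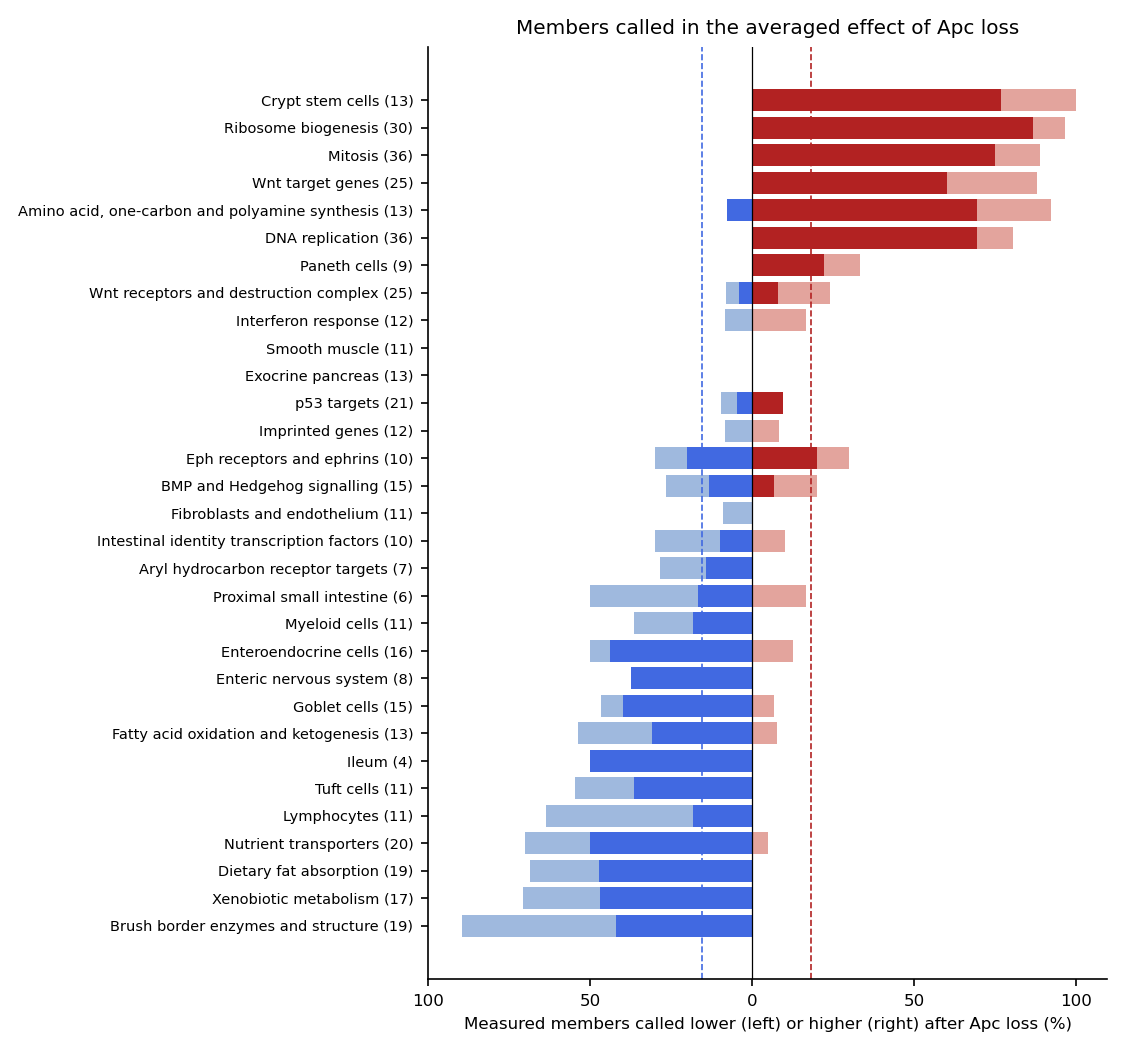
Percentage of the measured members of each list (number in brackets) that were called higher (right) or lower (left) in the averaged effect of Apc loss; dark bars are alike members, light bars other called members, and dashed lines the shares over all genes (18.2% and 15.5%). Crypt stem cell, ribosome and cell cycle lists extend to the right only, and brush border, xenobiotic and fat absorption lists to the left only.

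The list medians of both backgrounds were set side by side, without a test. Medians with and without p53 were 1.59 and 1.24 for ribosome biogenesis, -1.82 and -1.78 for xenobiotic metabolism and -1.40 and -1.82 for nutrient transporters. For brush border genes they were -0.97 and -1.58, and for fat absorption -0.79 and -1.67.

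**Figure D5:**
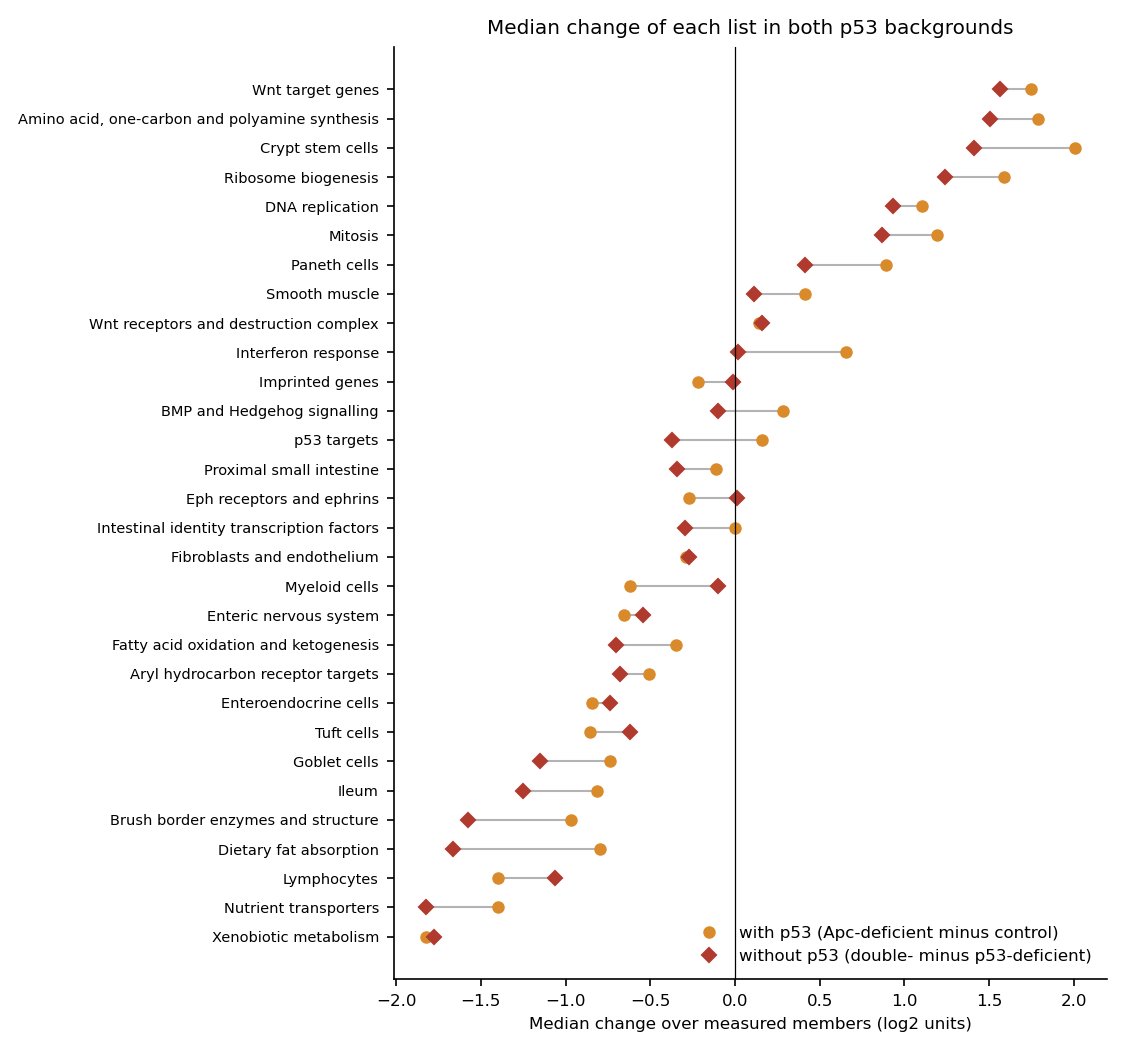
Median change in log2 signal over the measured members of each list after Apc loss with p53 (circles) and without p53 (diamonds); no error is drawn, because members are not replicates. Wnt targets sit at 1.75 and 1.56, xenobiotic genes at -1.82 and -1.78, and fat absorption genes at -0.79 and -1.67; the exocrine pancreas list is left out.

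Some genes had unlike effects in the 2 backgrounds. Among called probe sets whose arrays did not overlap in either background, 594 differed by 1 log2 unit or more. Lect2, a secreted protein known as a β-catenin target in liver, was undetected on the Apc +/+ and Apc-deficient arrays. It has no measured level with p53, so an unlike effect was not shown, and its difference between backgrounds was not called. It was at 9.29, 9.94 and 6.81 in p53-deficient and 123, 451 and 215 in double-deficient mice. For Mmp7 the difference between backgrounds did not pass (adjusted p = 0.18). Probe sets of 3 named genes passed the interaction test. For Asrgl1, an asparaginase whose probe set was undetected on the Apc +/+ arrays, so that its effects are fitted values with no measured baseline, the effect was 3.73 with p53 and 0.23 without (adjusted p of the difference 0.022). For Eif1ax, a translation initiation factor, it was 3.70 and 0.97 (adjusted p = 0.042), and for Zfp81, a zinc finger protein, 3.10 and -0.14 (adjusted p = 0.049). The Eif1ax probe set had signals of 20.5 to 30.0 in control mice and 142 to 409.8 in the other 3 genotypes. The brightest probe sets of these genes gave smaller differences, -1.09 for Asrgl1, -0.32 for Eif1ax and -0.49 for Zfp81, and none of these passed.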

How the data were processed

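Small intestinal RNA was measured on Affymetrix MOE430_2 arrays, 1 array per mouse and 3 per genotype, and groups were taken from the sample labels. The authors deposited probe set intensity on a linear scale from before their normalisation, with detection p-values. They also deposited a table of 34271 probe sets as a score, the log signal minus the array mean divided by the array standard deviation. The expression software is not given in the sources used. Detection columns of the 3 double-deficient arrays name the genotype but no array, so they were not used, nor were the columns of detection calls (15 columns in all). The screen therefore rested on 9 arrays, and a transcript present only in double-deficient mice could be missed. Of 45101 probe sets, 64 controls were left out and 35622 passing detection p under 0.2 on 1 or more of these arrays were tested. Signals under 1 were set to 1 (775 values), and log2 values of the deposited intensity were centred on the array mean. The number of arrays limits the precision.

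The averaged effect came from limma 3.58.1 (R 4.3.3; lmFit and eBayes) with terms for p53 and Apc, and the effects in each background and their difference from a fit with 1 mean per genotype. P-values were adjusted by Benjamini-Hochberg over all probe sets tested and called at 0.05. The permutation procedure of the study's methods was not run. A probe set with a detection p of at least 0.05 counted as undetected. Where it was undetected on every Apc +/+ array, or on every Apc-deficient array, the fold change is given as "at least", except where stated otherwise. Each undetected array entered at its own signal or at a floor, whichever was higher. The floor was the smallest signal on that array of any probe set that all 3 arrays of the genotype detected. Where own signals lay above the floor, this value equals the fitted fold change and is no guaranteed minimum. This was so for Etv4, Ephb3 and Fzd6, given above as fitted values. For decreases this value is for mice with p53, and it is no bound where a control array also failed to detect the probe set. Each gene was represented by its probe set of highest mean log2 signal. By the platform annotation 27437 tested probe sets had 1 gene symbol, 749 several and 7436 none. Named genes were the 15 largest increases and 12 largest decreases among alike genes detected on all arrays of the higher group that have detection p-values, up to 5 called members of each list, genes the study names and genes called for the difference; other members named here were chosen after their values were seen. The members and lists were chosen with earlier results of these data known. Nothing says whether mice shared litters or handling. The p-values set each change against the spread between these mice that the model leaves. A shift shared by all mice of a genotype could enter the effects instead. The scripts were tested on simulated data. Alternatives were other scaling, the deposited scores, other screens and floors, a variance trend, other models, and leaving out each array or both arrays rich in pancreas transcripts.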

Additional observations from a re-analysis of the deposited data

Results flagged for a closer look

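Within the 6 arrays of 1 Apc genotype, 94 groups of values were tested for a single array far from the rest by Dixon's criterion, and 4 passed, where chance gives about 1 in 20. Asrgl1 was at 12.11 on p53-deficient GAP886, with the next Apc +/+ array at 53.1. Among the Apc fl/fl arrays, Dao was lowest on Apc-deficient D5fl_331u (23.8, next 51.63). Cdkn1a (2233, next 1273) and Mdm2 (731.2, next 483.9), both p53 targets, were highest on the same array, Apc-deficient D5fl_444t.

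The effect of Apc loss differed between p53 backgrounds for 4 probe sets in limma's test of the difference. On the log2 scale, as the effect without p53 minus that with p53, these were -3.503 for Asrgl1 (a fitted value, since its probe set was undetected on the Apc +/+ arrays), -3.24 for Zfp81, -2.736 for Eif1ax and 4.289 for a probe set that has no gene name here.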

How the results depend on the processing

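No called gene named by the rule changed sign under any alternative, but directions over all probe sets moved without scaling. The averaged effect had 9723 to 11528 calls under other scaling, screens, floors and models, except 5392 without scaling, where 48.4% were increases against 56.8%. It had 7675 calls without both arrays rich in pancreas transcripts and 8406 to 10737 with 1 array left out. The alike count was 2564 without scaling, 3938 with a limit of 0.5 log2 units and 5554 to 7005 with 1 array left out. Fits of 6 arrays gave 5722 calls with p53, 2246 without and 1120 in both. Without both pancreas-rich arrays these were 5515, 793 and 549, and the difference between backgrounds had 0 calls by limma (3190 at an unadjusted p under 0.05). With 1 array left out the counts were 5565 to 9385 with p53, 1152 to 3683 without and 837 to 2145 in both. Calls in both numbered 1442 without scaling. The difference between backgrounds had 11 calls after quantile normalisation, 11 from the deposited scores, 10 with signals under 20 set to 20, 2 with a variance trend and 4442 without scaling, 4416 higher and 26 lower against 1 and 3. Increases were 10.1% of unscaled calls with p53, against 59.3%. With 1 array left out the difference had 0 to 111, the highest without Apc-deficient D5fl_444t. The median change of the proximal small intestine list was -0.23, and 0.04 over all probe sets of its genes. The cause was not tested. Of 144 named genes called, 110 were called in the same direction under every alternative and 121 without scaling. The deposited scores have no alike count, since a limit in log2 units does not apply to them. No paired analysis was possible because the labels give no replicate numbers.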
